A study of Mus musculus with 22 samples.

Results

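The *Malat1*, *Neat1* and *Frmd8* locus of mouse chromosome 19 was defined as the span from the first to the last of these 3 genes in the GENCODE annotation of mm10 (GRCm38), with 20 kb added on each side (chr19:5775690-5895274, 119585 bp). It held 114 of the 388990 peaks in 22 deposited peak lists, of which 47 were H3K4me3 peaks, 46 were H3K27ac peaks and 21 were CTCF peaks. When the lists of each mark were merged, the locus contained 5 of 16244 H3K4me3 regions, 6 of 24299 H3K27ac regions and 12 CTCF sites, 23 in all. The locus was picked on a measured value, the H3K4me3 calls within *Neat1* at 24 h that were missing at 0 h. H3K4me3 differences between times at the locus are therefore given here as a description, with no test, whereas the H3K27ac and CTCF lists are no part of that contrast.

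The lists came from ChIP-seq of G1E-ER4 (hereafter G1ER) cells, a *Gata1*-null mouse erythroid progenitor line that stably expresses GATA1 fused to the ligand-binding domain of the estrogen receptor (GATA1-ER). All groups carried the same deletion and transgene, so that 0 h is the uninduced state, and cells were exposed to β-estradiol for 0, 2, 6, 12 or 24 h to activate GATA1-ER and start erythroid maturation. H3K4me3 and H3K27ac were profiled in 2 replicates at each of the 5 times and CTCF in 1 list each at 0 h and 24 h. The study describes its ChIP-seq replicates as independent experiments, with no word on whether each had its own culture, and the spread and the p-values below measure the differences between these lists. All values rest on 1 subclone of a line that never had its own GATA1.

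*Malat1* and *Neat1* are neighbouring genes for abundant nuclear long noncoding RNAs. *Malat1* RNA gathers in nuclear speckles, bodies rich in splicing factors, and *Neat1* RNA is the scaffold on which paraspeckles are built; *Neat1* makes a short and a long RNA from the same start site, and the long form is the one that paraspeckles need. H3K4me3 is a trimethyl mark of promoters, H3K27ac an acetyl mark of active promoters and enhancers, and CTCF a zinc-finger protein that binds a long asymmetric motif, anchors chromatin loops together with cohesin and can insulate genes from one another.

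Both noncoding RNA genes lie on the minus strand. The longest form of *Malat1* (ENSMUSG00000092341.3, chr19:5795690-5802672, 6983 bp) is annotated with 1 exon, and so is that of *Neat1* (ENSMUSG00000092274.3, chr19:5824708-5845478, 20771 bp). The short form of *Neat1* covers the first 3170 bp. The start sites of the 2 genes are 42806 bp apart, with 22035 bp between the *Neat1* 3′ end and the *Malat1* start. *Frmd8os*, an antisense gene, starts 145 bp from the *Neat1* start and runs the other way. *Frmd8* (ENSMUSG00000024816.12, chr19:5849702-5875274, minus strand, 11 exons) encodes a FERM-domain protein that binds the iRhom proteins and supports the sheddase ADAM17 at the cell surface. Its 3′ end is 4223 bp from the *Neat1* start. Beyond *Frmd8* lie *Slc25a45*, which encodes a member of the mitochondrial carrier family and starts 2534 bp from *Frmd8* on the plus strand, and *Tigd3*, which encodes a protein derived from a transposase. The map of the locus shows these genes below the peaks of all 22 lists.

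**Figure D1:**
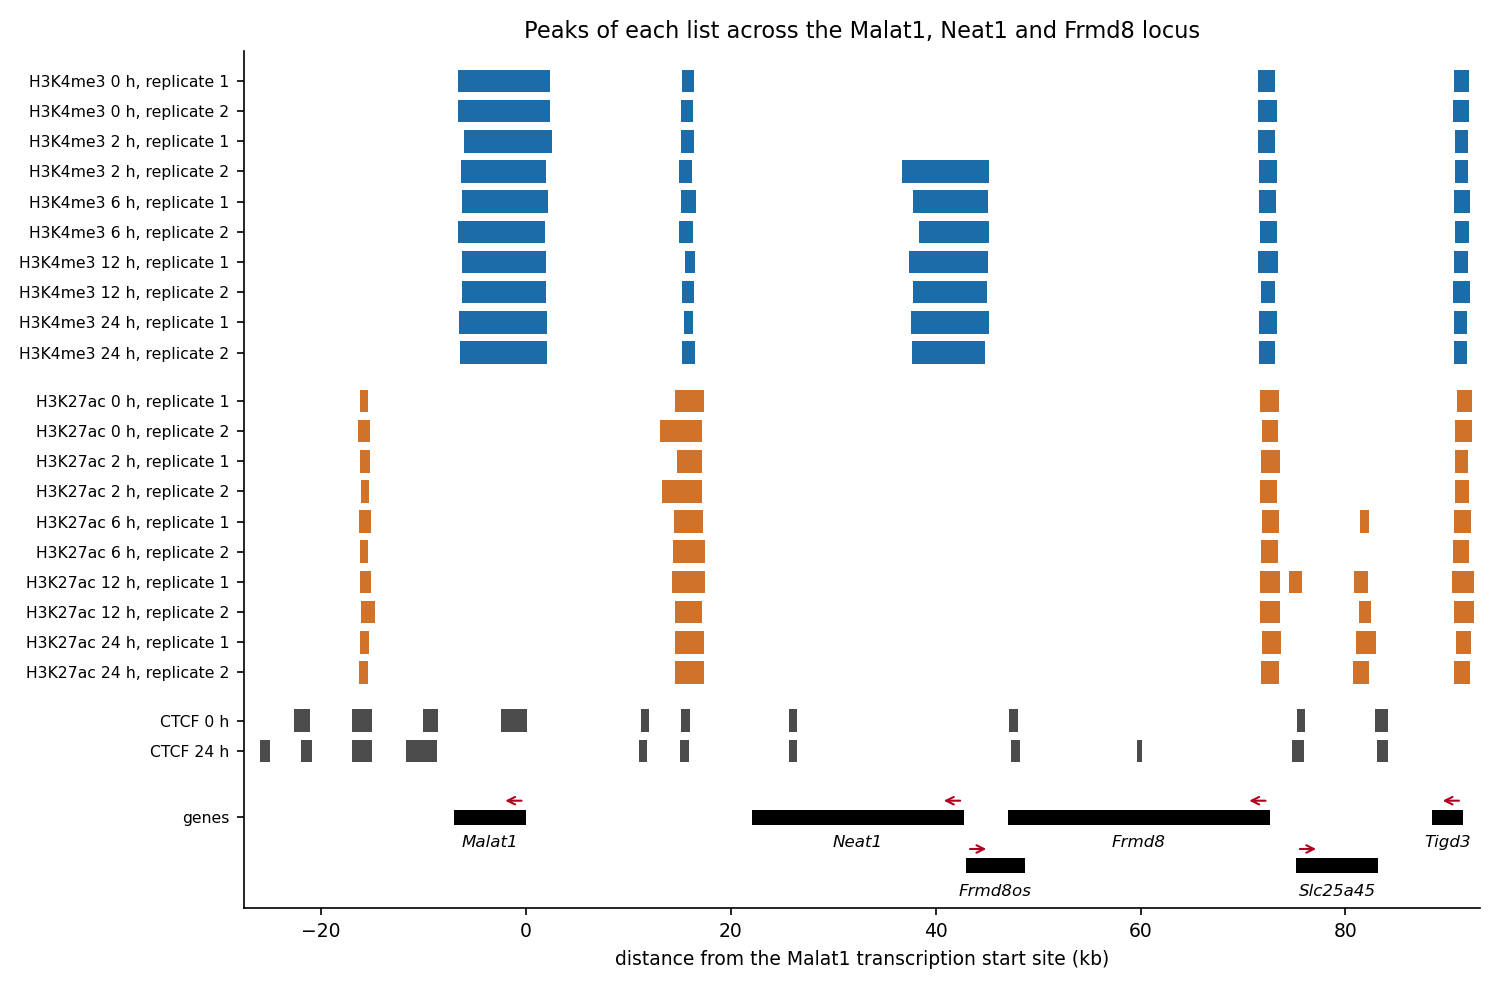
Peaks of the 22 lists across the locus, with 1 row per list (mark, time and replicate) and position in kb from the *Malat1* start site; gene bodies are drawn at the bottom with their direction. H3K4me3 covers nearly all of *Malat1* in 10 of 10 lists and the 5′ part of *Neat1* in 7 of 10, whereas no H3K27ac peak lies on either start site.

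Sequences of the places on which the results turn are given first, from the GRCm38 genome and, for *Malat1* and *Frmd8*, from the RefSeq promoter table of the same build. The *Malat1* sequence is the 300-base promoter window, which lies under H3K4me3 in every list; *Frmd8* is shown for the 184 bases before its start, as a promoter that carried both histone marks throughout. The element between *Malat1* and *Neat1* is the 300 bases at the centre of the 364 bp shared by all 22 lists, the only stretch of the locus that every list called. The element downstream of *Malat1* is taken from the bases shared by its 10 H3K27ac and 2 CTCF lists, and the late element lies in the 3′ part of *Slc25a45*, mostly in an intron, where H3K27ac was called only from 6 h on. Capitals mark matches, on either strand, to the CACC box CCNCNCCC bound by Krüppel-like factors, to the CCAAT box CCAAT or to the CTCF core CCNNNAGNNGGC.
*Malat1* promoter, chr19:5802623-5802922, minus strand: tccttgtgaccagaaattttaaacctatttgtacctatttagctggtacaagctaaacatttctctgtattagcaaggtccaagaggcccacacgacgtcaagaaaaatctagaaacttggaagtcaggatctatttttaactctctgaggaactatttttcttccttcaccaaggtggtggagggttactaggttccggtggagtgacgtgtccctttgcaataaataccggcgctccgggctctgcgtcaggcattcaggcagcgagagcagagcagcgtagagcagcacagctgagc
*Frmd8* upstream of the start, chr19:5875275-5875458, minus strand: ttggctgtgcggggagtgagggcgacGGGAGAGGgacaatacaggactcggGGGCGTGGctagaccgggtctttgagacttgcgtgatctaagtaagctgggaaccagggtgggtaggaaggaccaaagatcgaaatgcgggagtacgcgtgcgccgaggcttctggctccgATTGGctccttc
Element between *Malat1* and *Neat1*, chr19:5818257-5818556, plus strand: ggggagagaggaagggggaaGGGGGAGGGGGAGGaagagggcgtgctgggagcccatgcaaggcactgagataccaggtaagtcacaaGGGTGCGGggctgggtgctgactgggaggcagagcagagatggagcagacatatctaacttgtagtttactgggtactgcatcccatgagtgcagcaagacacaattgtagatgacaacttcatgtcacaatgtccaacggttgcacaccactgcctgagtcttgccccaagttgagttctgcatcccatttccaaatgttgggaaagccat
Element downstream of *Malat1*, chr19:5786760-5787059, plus strand: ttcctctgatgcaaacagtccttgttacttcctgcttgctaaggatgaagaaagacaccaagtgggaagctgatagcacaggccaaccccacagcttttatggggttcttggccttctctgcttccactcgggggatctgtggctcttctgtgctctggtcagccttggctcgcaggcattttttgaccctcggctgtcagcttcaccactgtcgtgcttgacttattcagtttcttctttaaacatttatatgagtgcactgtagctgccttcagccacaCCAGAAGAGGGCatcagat
Late element at *Slc25a45*, chr19:5884065-5884364, plus strand: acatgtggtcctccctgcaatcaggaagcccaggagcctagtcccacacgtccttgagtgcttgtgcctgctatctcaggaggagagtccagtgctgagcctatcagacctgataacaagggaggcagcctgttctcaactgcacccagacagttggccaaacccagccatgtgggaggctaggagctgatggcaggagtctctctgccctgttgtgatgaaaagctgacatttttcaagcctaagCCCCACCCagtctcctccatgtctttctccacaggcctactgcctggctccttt

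Letters for 4 promoter motifs were searched on both strands. The *Malat1* window held no AGATAA (a form of the GATA motif), no CACC box, no GGGCGG (the GC box) and no CCAAT. These letters occur in 11.2%, 49.5%, 35.7% and 37.4% of 32841 promoter windows of the same length. Its GC content was 47.0% against a median of 52.7%, and 28.4% of promoters had a lower one. The *Frmd8* sequence held 2 CACC boxes and 1 CCAAT box, which are present in 32.9% and 25.7% of promoters over the same 184 bases, and had a GC content of 60.3%. The printed window of the element between *Malat1* and *Neat1* held 4 CACC boxes, some of them overlapping. That of the late *Slc25a45* element held 1. Of 24294 central windows of H3K27ac regions, 35.8% contain this motif and 19.9% contain AGATAA, which was in neither of these printed windows. The whole H3K27ac region at the element between *Malat1* and *Neat1* (4405 bp) did hold 3 AGATAA matches. The whole late *Slc25a45* region (2331 bp) held 0. Other forms of the GATA motif, such as TGATAA, were not searched, and any of the printed windows may hold them.

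The H3K4me3 calls at *Neat1* divided the time course into early and late lists. The region (chr19:5839361-5847897) spanned the *Neat1* start, the start of *Frmd8os* and the first 21.2 to 29.5% of the *Neat1* gene. The peak covered 0 bp in both lists at 0 h, 0 bp and 8537 bp in replicates 1 and 2 at 2 h, 7294 and 6801 bp (6 h), 7782 and 7225 bp (12 h), and 7606 and 7151 bp (24 h). It was therefore called in 7 of 10 lists, in neither list at 0 h, in 1 of 2 at 2 h and in both at every later time. Where it was called, it ran from 2021 to 2419 bp upstream of the start to 4404 to 6117 bp into the gene, thus past the end of the short *Neat1* RNA, and it also took in the starts of the small annotated genes *Gm27533*, *Gm27505* and *Gm28006*. Mean covered length was 4268.5 ± 6040 bp (SD, n = 2) at 2 h, 7047.5 ± 349 bp (6 h), 7503.5 ± 394 bp (12 h) and 7378.5 ± 322 bp (24 h), and thus varied little from 6 h on.

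The single 2 h call stood apart from the 6 later calls in both length and score. The score is that of the peak caller, which rises with the confidence of the call, and because its scale differs from list to list it is given as a percentile within its own list. The 2 h peak, the longest of the 7, had the lowest score (66.62, percentile 5.32). The 2 peaks at 6 h scored 277.6 and 439.51 (percentiles 28.8 and 33.3), those at 12 h 154.82 and 229.67 (19.8 and 25.3), and those at 24 h 191.31 and 316.87 (21.6 and 29.8). The shortest peak, that of 6 h replicate 2, had the highest score, and no *Neat1* peak reached the middle of its list.

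Very few H3K4me3 regions showed the *Neat1* pattern of calls. Of 16244 regions, 10 had no peak at 0 h and a peak in both lists at 6, 12 and 24 h, *Neat1* among them. Of these 10, 2 covered over 6500 bp in a list, again with *Neat1* included. In the linear model of covered length (limma), 1.58% of 14862 H3K4me3 regions passed an adjusted p of 0.05 at 24 h against 0 h, and at 2, 6 and 12 h the share was 0.0538%, 0.148% and 0.316%. The locus was chosen on this contrast, and the pattern was written from its *Neat1* calls. These counts and shares are given as background only.

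Long domains such as those at *Neat1* and *Malat1* were close to the upper limit of what these lists contain. The longest H3K4me3 peak of a list measured 8843 to 9200 bp and the longest H3K27ac peak 8769 to 8973 bp, and no peak of either mark was longer. Scores fell as domains approached that length: the median percentile was 73.4 for H3K4me3 peaks of 3000 to 4000 bp, 28.4 for 7000 to 8000 bp and 9.22 for those of 8500 bp or longer. Calls also became irregular. A peak was present in all 10 lists for 99.4% of H3K4me3 regions whose longest peak was 4000 to 5000 bp, for 93.3% (97 of 104) at 7000 to 8000 bp, for 78.9% (30 of 38) at 8000 to 8500 bp and for 38.5% (15 of 39) above that. *Malat1*, with a longest peak of 8990 bp, belongs to the last class. *Neat1* belongs to it through 2 h replicate 2 alone (8537 bp, percentile 5.32). The other 6 calls measured 6801 to 7782 bp. Lengths of listed peaks do not give the length at 0 h, where none was listed. At 0 h, an absent domain and a domain too long to be listed cannot be told apart from these files, and the part of this limit in the *Neat1* result was not tested.

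**Figure D2:**
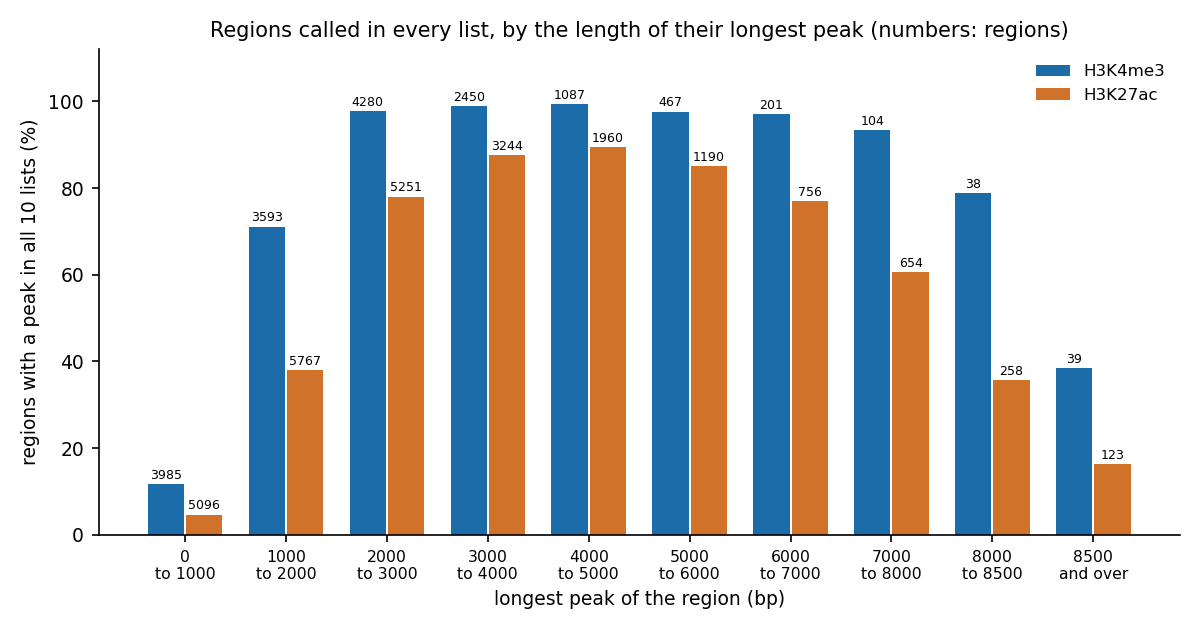
Share of merged regions with a peak in all 10 lists (y axis, percent), by the length of the region's longest peak (x axis, bp), for H3K4me3 and H3K27ac. The share is highest at 4000 to 5000 bp, where it is 99.4% and 89.5%, and falls to 38.5% and 16.3% at 8500 bp or longer, the class of the *Malat1* H3K4me3 region and, through its 2 h peak alone, of that at *Neat1*.

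**Figure D3:**
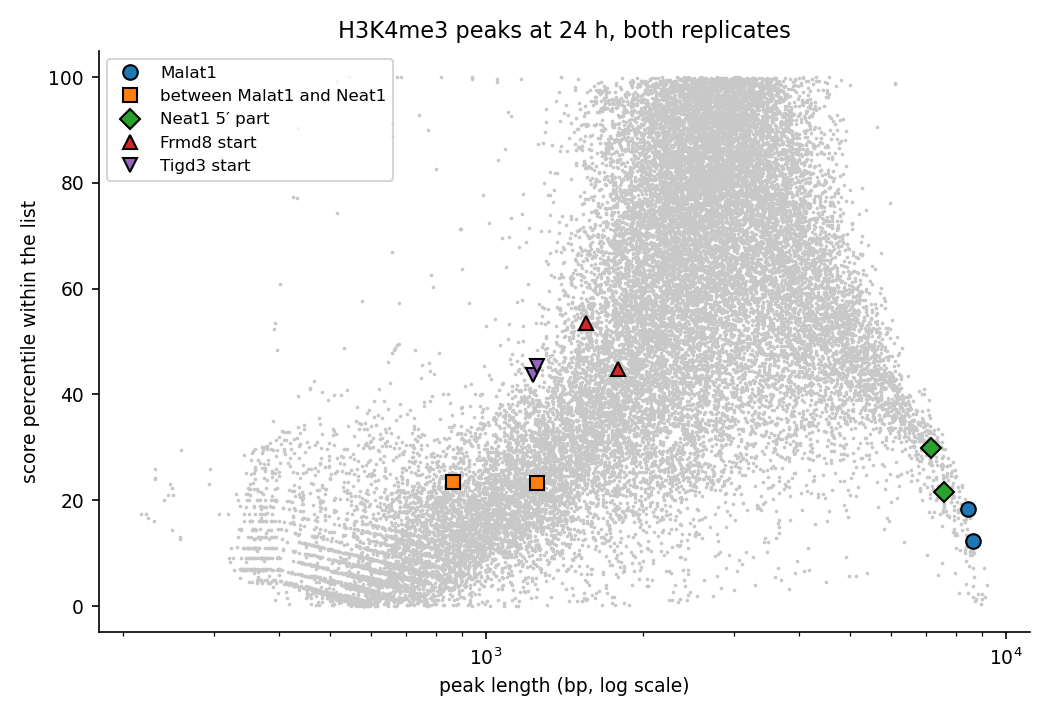
Length (x axis, bp, log scale) against the percentile of the score within the list (y axis) for the H3K4me3 peaks at 24 h, with the peaks of the locus marked. The *Neat1* and *Malat1* peaks lie at the long, low-scoring end, at percentiles between 12.3 and 29.8, and the *Frmd8* and *Tigd3* peaks lie between 43.6 and 53.5.

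*Malat1* carried H3K4me3 over nearly the whole gene at every time. The peak covered 8908 and 8990 bp (0 h), 8630 and 8298 bp (2 h), 8356 and 8499 bp (6 h), 8263 and 8264 bp (12 h), and 8613 and 8440 bp (24 h). Both 0 h peaks were longer than all 8 later ones, and the means moved from 8949 ± 58.0 bp (SD, n = 2) at 0 h to 8263.5 ± 0.707 bp (12 h) and 8526.5 ± 122 bp (24 h). In the 10 lists the peak reached 1892 to 2562 bp upstream of the start and covered 86.9 to 95.3% of the gene (median 91.0%), and it was between the 3rd and the 14th longest of its list. The small genes *Gm27694* and *Gm37376*, annotated within *Malat1*, have their starts under the same peak. The score percentile was lowest at 0 h (5.01 and 5.12) and lay between 12.3 and 20.5 in the other 8 lists. The longest *Malat1* peaks thus had the lowest scores, the order also seen at *Neat1*.

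The promoters of *Frmd8* and *Tigd3* carried short H3K4me3 peaks that hardly moved. At *Frmd8* the peak covered 1644 and 1923 bp (0 h), 1632 and 1787 bp (2 h), 1618 and 1657 bp (6 h), 1901 and 1367 bp (12 h), and 1792 and 1554 bp (24 h). The lists of different times overlapped, with means of 1783.5 ± 197 bp (0 h) and 1673 ± 168 bp (24 h; SD, n = 2). At the *Tigd3* start the 10 lists ranged from 1230 to 1673 bp. Scores lay at percentiles 44.9 to 63.0 for *Frmd8* and 37.2 to 50.1 for *Tigd3*, all above those of *Malat1* and *Neat1* in the same lists. No list placed an H3K4me3 peak on the start of *Slc25a45*, where the nearest one was 1750 to 2048 bp away, over the *Frmd8* start.

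The remaining H3K4me3 region (chr19:5817628-5819244) lay on no gene, between *Malat1* and *Neat1*, and covered 1194 and 1133 bp (0 h), 1276 and 1301 bp (2 h), 1380 and 1353 bp (6 h), 950 and 1169 bp (12 h), and 862 and 1250 bp (24 h). It was called in 10 of 10 lists at mean percentiles of 22.3 to 26.7 by time. Both 6 h peaks were longer than those of the other 8 lists, and the shortest 2 came from replicate 1 at 12 h and at 24 h. Against 0 h, the 24 h mean differed by -422.5 bp at *Malat1*, -107.5 bp here, -110.5 bp at *Frmd8* and -252 bp at *Tigd3*, against 7378.5 bp at *Neat1*.

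**Figure D4:**
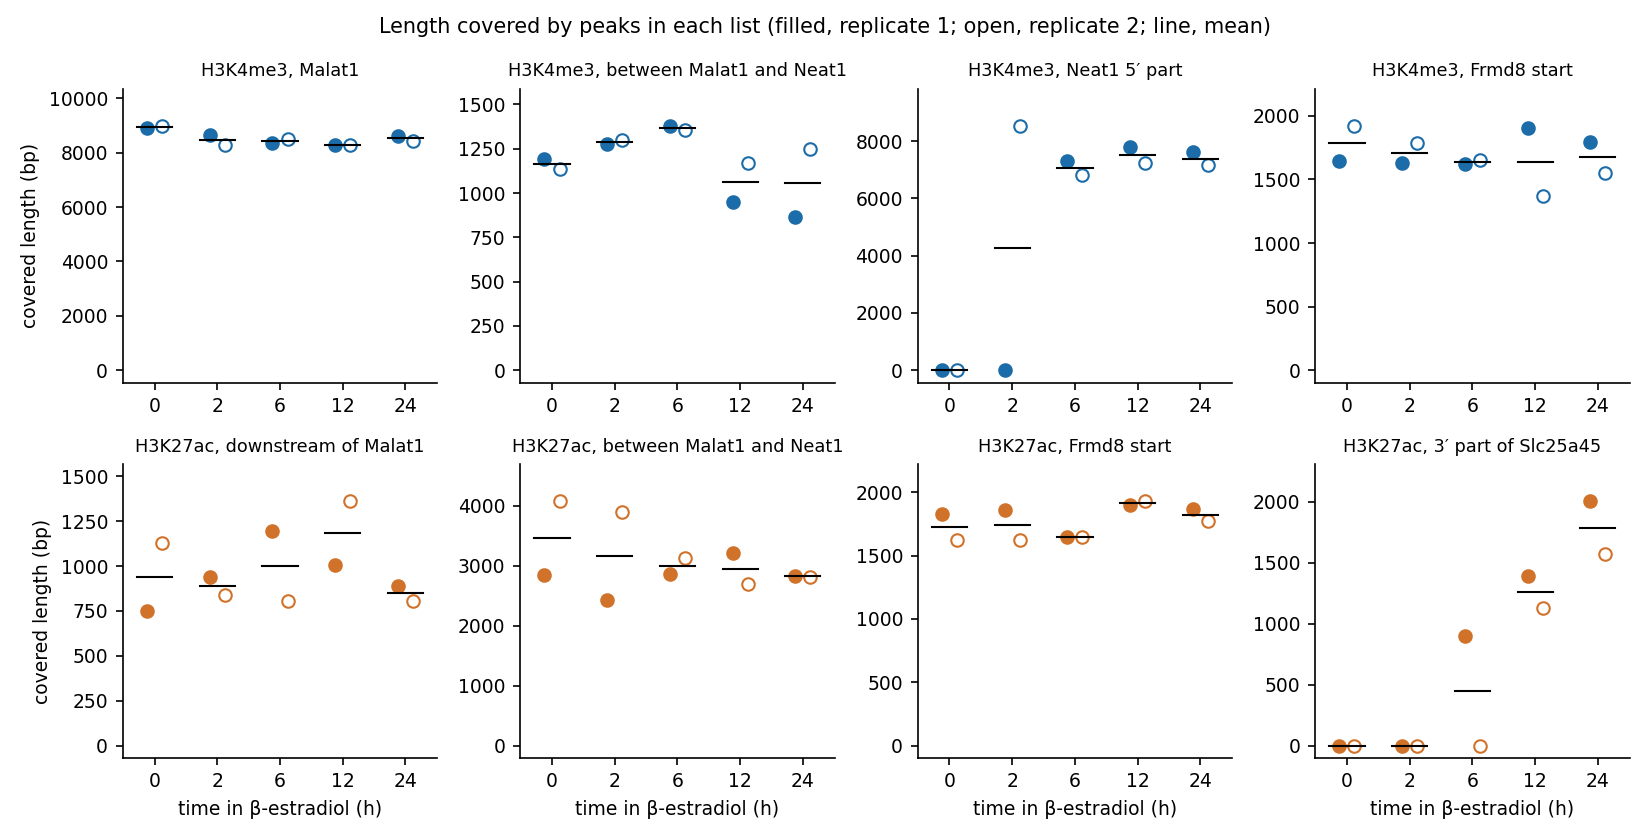
Covered length (bp, y axis) against hours of β-estradiol (x axis) in 8 panels for regions of the locus. Filled circles are replicate 1, open circles replicate 2, and the short line at each time is the mean of 2 lists. The *Neat1* H3K4me3 panel goes from 0 bp at 0 h to values between 6801 and 7782 bp from 6 h on, the late *Slc25a45* H3K27ac panel leaves 0 bp only from 6 h on, and the other panels have a peak at every time.

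H3K27ac was called at neither noncoding RNA promoter. The nearest H3K27ac peak was 13120 to 14725 bp from the *Malat1* start and 25282 to 25646 bp from the *Neat1* start in the 10 lists. An H3K4me3 region without any H3K27ac peak was uncommon among regions in all 10 lists (472 of 11506, 4.1%) and common among regions that covered over 6500 bp in a list (104 of 272, 38.2%). The same gap was seen at promoters of the erythroid program: of 12 erythroid marker genes, 6 had no H3K27ac region at the start site in any list, among them *Hbb-bt*, a β-globin gene, and *Gata1*, which is disrupted in these cells. *Tfrc*, the transferrin receptor, had one in only 1 list. An absent H3K27ac call in these lists therefore cannot be told apart from a domain that the caller did not report, and its part at *Malat1* and *Neat1* was not tested.

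The highest-scoring H3K27ac at the locus lay in the element between *Malat1* and *Neat1* (chr19:5815792-5820196). The peak covered 2840 and 4082 bp (0 h), 2436 and 3899 bp (2 h), 2869 and 3134 bp (6 h), 3207 and 2698 bp (12 h), and 2832 and 2814 bp (24 h). Lengths of the different times overlapped, and replicate 2 exceeded replicate 1 by over 1000 bp only at 0 h and 2 h. The score percentile was between 54.3 and 85.1, and its mean moved from 64.0 (0 h) through 72.0 (2 h), 77.2 (6 h) and 79.0 (12 h) to 80.9 (24 h), each the highest of any H3K27ac region of the locus at that time. The 0 h lists spanned 54.3 to 73.8, and the 24 h lists (81.3 and 80.5) lay above both of them. Single lists did not rise steadily. Replicate 1 at 2 h (82.9) and replicate 2 at 12 h (85.1) lay above both 24 h lists. Their partners (61.1 and 72.9) lay below. In 0 h replicate 2 the region scored below the *Frmd8* (60.6) and *Tigd3* (54.9) promoters.

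H3K27ac at the *Frmd8* and *Tigd3* promoters, like H3K4me3 there, was present in every list, whereas the *Slc25a45* start had it in 1 of 10. At *Frmd8* it covered 1829 and 1624 bp (0 h), 1860 and 1622 bp (2 h), 1644 and 1644 bp (6 h), 1897 and 1930 bp (12 h), and 1864 and 1769 bp (24 h), with means of 1726.5 ± 145 bp (0 h) and 1816.5 ± 67.2 bp (24 h; SD, n = 2). The 10 lists ranged from 1247 to 2117 bp at *Tigd3* and from 749 to 1362 bp at the element downstream of *Malat1* (chr19:5786334-5787934). Percentiles were 54.7 to 66.1 at *Frmd8*, 54.9 to 70.5 at *Tigd3* and 23.9 to 44.9 at the downstream element, which was the weakest of the regions present in all 10 lists.

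The sole region of the locus with H3K27ac in both lists at late times and in none at early ones was the 3′ part of *Slc25a45* (chr19:5883362-5885692). It covered 0 bp in all 4 lists at 0 h and 2 h, 899 and 0 bp (6 h), 1390 and 1127 bp (12 h), and 2006 and 1568 bp (24 h). Every 12 h and 24 h list exceeded every earlier one, and both 24 h lists exceeded both 12 h lists. The mean was 449.5 ± 636 bp (6 h), 1258.5 ± 186 bp (12 h) and 1787 ± 310 bp (24 h; SD, n = 2). The calls were weak, with scores of 69.18 to 103.56, none above percentile 24.2. Because the 0 h lists are at 0, no fold is given.

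The 24 h and 12 h differences at this element did not pass the threshold in the model over all H3K27ac regions (limma adjusted p = 0.0553 and 0.158). The outcome turned on the 6 h lists, which form the discordant pair of this region: without 6 h replicate 1 or without 6 h replicate 2, the limma adjusted p was 0.00354 and 0.00325 at 24 h and 0.0103 and 0.00922 at 12 h. Presence at 12 h and 24 h with absence at 0 h and 2 h was seen in 122 of 24299 H3K27ac regions (0.502%). In the lists of the same mark the share of 21011 tested regions with an adjusted p under 0.05 was 1.87% (2 h), 2.07% (6 h), 2.75% (12 h) and 6.32% (24 h). At each time 0 of the 5 tested regions of the locus passed, with limma adjusted p from 0.696 to 1.0 (2 h), 0.688 to 1.0 (6 h), 0.158 to 0.778 (12 h) and 0.0553 to 0.995 (24 h). At an unadjusted p under 0.05, 0, 0, 2 and 1 of them passed in the same order of times, beside 9.12%, 10.6%, 13.3% and 21.2% of all tested H3K27ac regions. With 2 lists against 2, an exact two-sided permutation test of a single region cannot go below p = 0.333.

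Summed over the locus, the length under H3K4me3 went from 13390 ± 334 bp (0 h) to 19876 ± 321 bp (24 h; SD, n = 2), a difference of 6486 bp to which *Neat1* contributed 7378.5 bp. For H3K27ac it was 6874 and 8520 bp (0 h, mean 7697 ± 1160) and 9045 and 8586 bp (24 h, mean 8815.5 ± 325), so that 24 h replicate 2 lay only just above 0 h replicate 2. The difference of 1118.5 bp turned to -717 bp when the 20 kb flanks, which hold the late *Slc25a45* element, were left off and to -577.5 bp when only peaks above the median score were kept.

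No call that was present at 1 time only was shared by both replicates of that time. As a whole region, 0 of 5 H3K4me3 regions and 1 of 6 H3K27ac regions had a peak at 1 time only, where 9.3% of all H3K4me3 regions and 15.0% of all H3K27ac regions did; counts this small do not set the locus apart from that background. The H3K27ac region lay on the *Slc25a45* start (chr19:5877198-5878443, 1246 bp) and was called in 12 h replicate 1 alone, at a score of 69.23 and percentile 11.1. The other 4 stretches of at least 200 bp were edges of larger peaks. For H3K4me3 these were 219 bp at the upstream edge of *Malat1* in 2 h replicate 1 (chr19:5805016-5805234) and 688 bp on the *Neat1* side away from its start in 2 h replicate 2 (chr19:5839361-5840048). For H3K27ac they were 367 bp at the element downstream of *Malat1* in 12 h replicate 2 (chr19:5787568-5787934) and 571 bp at the late *Slc25a45* element in 24 h replicate 1 (chr19:5885122-5885692).

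CTCF occupied 12 sites at the locus, 10 of them at 0 h and 11 at 24 h. Both times shared 9 sites, where the peaks overlapped by at least 82.0% of the shorter one. Sites were numbered along the chromosome. A single site was listed at 0 h only, site 5 over the *Malat1* start (chr19:5800285-5802794, 2510 bp, score 156.75, percentile 63.9). Those listed at 24 h only were site 1 between genes (chr19:5776781-5777728, percentile 6.72) and site 10 in a *Frmd8* exon (chr19:5862356-5862770, percentile 24.4). In the whole lists, 92.1% of the 33193 peaks at 0 h touched a 24 h peak and 73.3% of the 41473 peaks at 24 h touched a 0 h peak. With 1 list per time the CTCF comparison has no replicate check.

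The high-scoring CTCF sites stayed high at both times. Site 3, at the element downstream of *Malat1*, was at percentile 94.6 at 0 h and 95.4 at 24 h. Site 9, in the 3′ part of *Frmd8* and within a *Frmd8os* intron, its centre 4916 bp from the *Neat1* start, moved from 88.1 to 97.8. At *Slc25a45*, site 11 at the start, which only its 24 h peak covers, moved from 87.6 to 91.9 and site 12 at the 3′ end from 86.5 to 90.9. Weaker sites moved further, in both directions: site 7, in the element between *Malat1* and *Neat1*, from 60.3 to 82.5, site 8, within the *Neat1* exon, from 14.3 to 34.5, site 4, downstream of *Malat1*, from 74.8 to 89.4, site 2 from 48.8 to 11.7 and site 6, upstream of *Malat1*, from 64.4 to 12.3. A histone mark peak of any list overlapped 5 of the 12 sites. At sites 11 and 12 it came from only 1 of 10 H3K27ac lists each. Sites 3, 5 and 7 were overlapped in all 10 lists of a mark. No site lay on the *Frmd8* or the *Neat1* start.

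**Figure D5:**
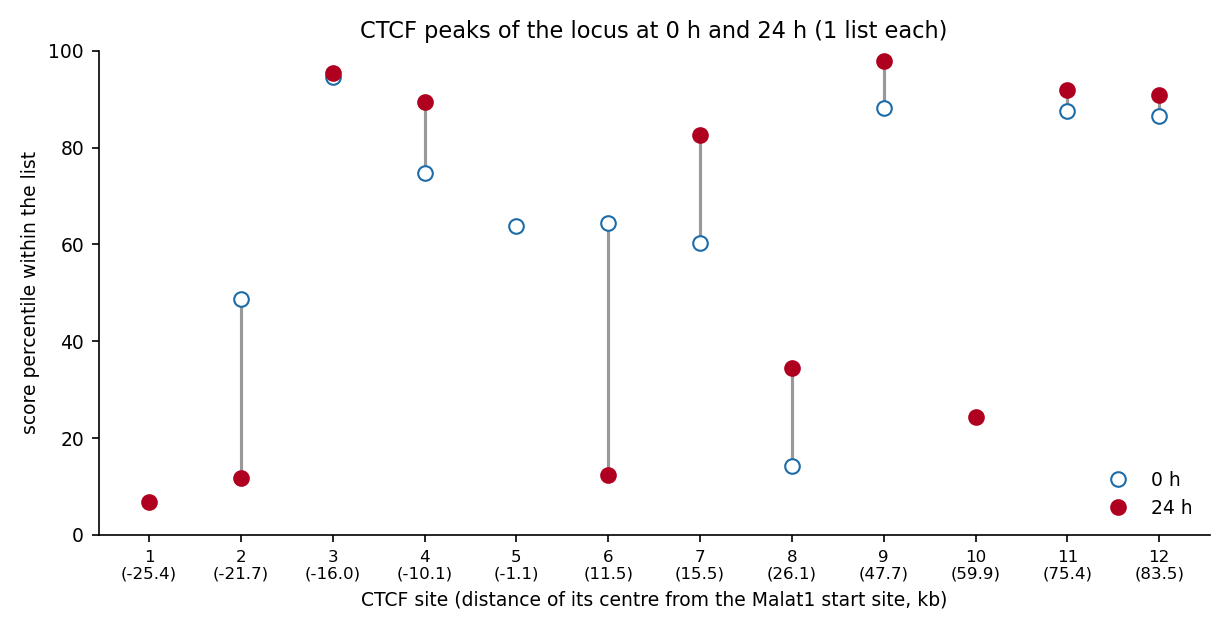
Percentile of the CTCF score within its list (y axis) at the 12 sites in chromosome order (x axis); open blue circles are 0 h and filled red circles 24 h, 1 list each, and a missing circle means that no peak was listed. Sites 3, 9, 11 and 12 lie above 86 at both times, sites 2 and 6 are lower at 24 h, and site 5, over the *Malat1* start, has no 24 h peak.

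The letters CCNNNAGNNGGC, the core of the CTCF motif, occurred on either strand in the central 300 bases of 52.8% of CTCF peaks at 0 h and 53.6% at 24 h, against 5.09% and 5.02% of windows 2000 bp beyond them. At the locus, 9 of 12 sites held a match within a peak and 6 of 12 within the central 300 bases; sites 5, 6 and 10 held none. Of the 16 matches, 12 lay in repeat-masked bases, and at 5 of the 9 sites every match did. Over the whole lists this was so for 42.5% of the matched central windows at 0 h and 49.9% at 24 h. The sites were scanned over their full length and the lists over the central 300 bases only, so these shares are not measured alike. Matches on both strands were found at 3 of the 9 sites. The 30 bases around 4 matches outside repeats and 4 within repeats are shown, read along the strand of the match, with the core in capitals.
Site 3, chr19:5786577-5786606, minus strand, not repeat-masked: cactgaggtCCACTAGAGGGCgcgtgatgc
Site 7, chr19:5818576-5818605, minus strand, not repeat-masked: aacttcaggCCCAGAGAAGGCtccaaaccc
Site 9, chr19:5850355-5850384, minus strand, not repeat-masked: cagctgtgaCCAGCAGGGGGCagctgagcc
Site 11, chr19:5878184-5878213, minus strand, not repeat-masked: agaacgtggCCACGAGGTGGCagtcccagg
Site 2, chr19:5781259-5781288, plus strand, repeat-masked: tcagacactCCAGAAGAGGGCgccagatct
Site 4, chr19:5793620-5793649, minus strand, repeat-masked: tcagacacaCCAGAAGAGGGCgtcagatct
Site 8, chr19:5828582-5828611, minus strand, repeat-masked: cagtagagaCCAGAAGAGGGCatcagatcc
Site 12, chr19:5886423-5886452, minus strand, repeat-masked: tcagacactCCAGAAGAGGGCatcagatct

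The 4 repeat-masked examples share the core CCAGAAGAGGGC, whereas each of the 4 others has a core of its own. Site 9, which had the highest 24 h percentile of the locus, carries its unmasked match 68 bp from the centre of the 0 h peak and 108 bp from that of the 24 h peak. The match at site 7 lies in the 0 h peak only, since the 24 h peak ends within it. A match describes the letters and not a bound base.

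CTCF peaks were denser at the locus than in the windows of the same length on either side. They covered 10.7 to 10.9% of the locus, 2.93 to 3.23% of the window to the left and 3.57 to 7.0% of the window to the right, with 10 and 11 peaks against 4 and 4 on the left and 4 and 8 on the right. H3K27ac was lower, covering 5.42 to 9.08% of the locus in the 10 lists against 12.5 to 22.5% on the left and 10.1 to 15.0% on the right. H3K4me3 covered 10.8 to 17.7% of the locus, 9.51 to 15.9% on the left and 7.33 to 8.93% on the right. The H3K27ac ranges did not overlap, while the H3K4me3 range overlapped that of the left window; the windows are neighbours and not replicates, and these comparisons carry no test. Of the protein-coding genes, 3 lie in the locus, 9 in the left window and 5 in the right one.

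Genes that work with the *Neat1* and *Malat1* RNAs were examined for the same marks at their start sites. Paraspeckle protein genes had a tested H3K4me3 region at 29 of 30 and nuclear speckle genes at 26 of 26, and 0 of either list passed at 24 h against 0 h (limma adjusted p; 0.857% of 12832 genes passed). At an unadjusted p under 0.05, 2 of the 29 and 0 of the 26 did, beside 9.37% of all genes. The median log2 difference in covered length was 0.0183 and -0.0233, beside -0.0103 over all genes. For H3K27ac, where 3.04% of 12482 genes passed, 1 of 29 paraspeckle genes was longer at 24 h, *Rbm12*, which encodes an RNA-binding protein (log2 1.12, limma adjusted p = 0.0166, n = 2 lists per time). Another was shorter, *Smarca4*, the BRG1 chromatin remodeller (log2 -0.291, limma adjusted p = 0.0477). None of the 26 speckle genes passed. At an unadjusted p under 0.05, 7 of the 29 paraspeckle and 1 of the 26 speckle genes did, beside 14.7% of all genes. The H3K27ac medians were 0.115 and 0.0441, beside 0.0424 over all genes.

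Other long noncoding RNA genes did not show domains of the *Malat1* or *Neat1* length. Of 33 listed, 30 matched the annotation and 20 had an H3K4me3 region at the start, all 20 in 10 of 10 lists; 10 had none, among them *Xist*, *Meg3* and *H19*. The longest peaks of the 20 measured 2476 to 6431 bp. None of the 20 passed at 24 h against 0 h for H3K4me3 and none of 19 for H3K27ac (limma adjusted p), with 1 and 2 at an unadjusted p under 0.05 (9.37% and 14.7% of all genes). Of the erythroid markers, 0 of 10 tested passed for H3K4me3, with 3 at an unadjusted p under 0.05, and 2 of 5 tested passed for H3K27ac: *Alas2*, the first enzyme of erythroid heme synthesis, and *Slc4a1*, the red cell anion exchanger, both longer at 24 h (limma adjusted p = 0.0294 and 0.00113). Markers of other cell types had an H3K4me3 region at 0 of 8 genes and an H3K27ac region at 1 of 8.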

How the data were processed

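The peaks analysed came from 22 ChIP-seq lists made in G1ER cells, 10 for each histone mark and 2 for CTCF. Per the study's methods, the authors aligned reads with Bowtie2 at default settings, kept reads with 1 location and called peaks with MACS, using --nomodel for the histone marks; the labels' processing notes name mm10, although 1 protocol sentence names another genome. The MACS version, control, threshold and the calling of CTCF were not given in the sources used here. Each deposited list holds positions and a score per peak, which behaves as a multiple of the negative log10 of a p-value; the lists hold no read counts, so that depth is unknown and no counting interval is given. Lists held 12925 to 14452 H3K4me3 peaks, 17247 to 18333 H3K27ac peaks, and 33193 and 41473 CTCF peaks. No pair of lists shared over 0.0379% of its peak intervals, so that all were counted as separate.

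Groups came from the sample titles. Peaks of the 10 lists of a mark were merged where they touched, giving consensus regions; covered bp per list was taken as log2(bp + 200) and tested with limma 3.58.1 (trend) in R 4.3.3 over all regions present in at least 2 lists, with 10 lists per fit, each time against 0 h, Benjamini-Hochberg adjustment and a threshold of 0.05. Covered length measures the extent of a call and not its height. The fit was tested on simulated data. Genes came from GENCODE on GRCm38, whose chromosome 19 length (61431566 bp) bounds all peaks; a gene's region is that within 500 bp of its start. Every region of the locus is reported, and each gene of the locus whose start a peak touches is named. Other gene lists are given by counts and medians; those of their genes that are named, such as *Rbm12*, were picked after their values were seen. The locus, its members and the gene lists were chosen with earlier results of these data known. Alternatives were another pseudocount, a score filter, the lists of 0 h and 24 h only, a replicate term, other flanks and each list left out. Python 3.11.15, pandas 2.3.3 and numpy 2.4.6 were used for the intervals.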

Additional observations from a re-analysis of the deposited data

How the results depend on the processing

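Lists hold calls, not reads, so that a difference in covered length may be one of calling. Keeping only peaks above the median score of a mark (860.3 for H3K4me3, 241.9 for H3K27ac) removed every *Malat1* and *Neat1* H3K4me3 peak: the 24 h minus 0 h difference in covered length of the locus went from 6486 to -1006.5 bp for H3K4me3 and from 1118.5 to -577.5 bp for H3K27ac, 0 stretches were left at 1 time only for either mark (from 2 and 3), and 90 H3K4me3 (from 235) and 405 H3K27ac regions (from 1327) passed at 24 h over the whole lists. With no flank the H3K27ac difference was -717 bp, and with 50 kb the H3K4me3 difference was 7490.5 bp.

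With the 0 h and 24 h lists alone, 745 H3K4me3 and 2378 H3K27ac regions passed, and 1 H3K27ac region of the locus did, as with a pseudocount of 1000 bp; in both it was the late *Slc25a45* element (limma adjusted p = 0.00722 and 0.0299, range 0.00325 to 0.188 over 18 settings). Stretches at 1 time only numbered 4 and 9 with a minimum of 50 bp, 0 and 1 with 1000 bp, and 0 and 0 when both lists of the time had to hold them.

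Leaving out each list in turn gave 75 to 293 H3K4me3 regions (75 without 0 h replicate 1 and 102 without 0 h replicate 2) and 1092 to 1582 H3K27ac regions, 0 to 1 H3K27ac regions of the locus (1 without either 6 h list), differences of 6250 to 6722 bp for H3K4me3 and 295.5 to 1941.5 bp for H3K27ac (the extremes without 0 h replicate 1 and 0 h replicate 2), and 1 to 3 H3K4me3 stretches (1 without 2 h replicate 1) and 2 to 4 H3K27ac stretches. The replicates share only a number: differences between replicates 1 and 2 correlated between times at -0.0758 to 0.0318 for H3K4me3 and -0.0293 to 0.0168 for H3K27ac. With the replicate block 146 H3K4me3 and 1177 H3K27ac regions passed, and 0 H3K27ac regions of the locus. The 9 shared CTCF sites numbered 9 with an overlap of at least 50%, 6 with peaks above the median score and 10 with flanks of 50 kb. Unless stated, the cause of a difference between settings was not tested.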

Other observations

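A marker of a cell type that G1ER cells are not carried H3K27ac. *Gfap*, an intermediate filament gene of astrocytes, had an H3K27ac region at its start in 10 of 10 lists, the only one of 8 genes listed as markers of other cell types. It covered more bp at 24 h than at 0 h (log2 1.09, limma adjusted p = 0.0136, n = 2 lists per time), and no H3K4me3 region lay there.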
